A study of Mus musculus with 6 samples.

Results

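The genes described here carry glucose into the cell, break it down to lactate, or belong to the wider response to low oxygen. They are 34 genes taken as a fixed list of known glycolysis and hypoxia-response genes, chosen with earlier results of these data known. Of these, 21 act in glucose uptake, glycolysis and lactate handling and 13 are other genes of the hypoxia response. In all, 19938 genes were measured by a probe set annotated with 1 symbol, and 32 of the 34 are among them, 19 in the glycolysis list and 13 in the hypoxia list, and no value is given for Gpi1 and Eno1. The cells were HM1, an embryonic stem (ES) cell line of the mouse, and carried either a plasmid expressing mouse Prmt6 (Prmt6 overexpression, 3 arrays) or the empty pCAGIP.puro vector (control, 3 arrays). Prmt6 is an enzyme of the nucleus that methylates arginines, on histones among other proteins. Both groups grew with 15% serum and 1000 U/ml of LIF, were transfected with a lipid reagent, and were selected with 1 ug/ml puromycin over 3 days, so that control cells went through transfection and selection too. Each group is a transfected population and not a clone, and the labels do not say whether its 3 samples were separate transfections, so the p-values refer to the spread of these samples alone and that spread may be technical.

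Glycolysis splits glucose into pyruvate in the cytosol. Mouse ES cells use it heavily and export much of the carbon as lactate even when oxygen is present. In low oxygen the prolyl hydroxylases of the Egln family stop marking Hif1a for destruction, and the HIF dimer then binds a short motif near its target genes. Those targets include most glycolytic enzymes, kinases that inhibit pyruvate dehydrogenase, the mitophagy receptors Bnip3 and Bnip3l, and the vessel growth factor Vegfa. The medium and gas conditions in the labels were the same for both groups, and no low-oxygen treatment is part of the design.

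Values below are log2 signals of 1 probe set per gene, and changes are log2 differences, Prmt6 overexpression minus control. A change passed when its limma p-value was under 0.05 after Benjamini-Hochberg adjustment across the 19938 genes. The Prmt6 probe set read 7.32, 7.40 and 7.33 with the Prmt6 plasmid, against 6.84, 6.58 and 7.12 in control. It rose by 0.50 ± 0.13 (SE, adjusted p = 0.0406), a call that was lost on leaving out control replicate 1 (0.116) or 2 (0.0954), or overexpression replicate 1 (0.0893), 2 (0.119) or 3 (0.0788). The sources used here do not say whether that probe set lies in the cloned sequence. Array medians lay between 5.54 and 5.59 with the Prmt6 plasmid and between 5.60 and 5.62 in control. Over all genes 10.3% were called, 7.05% higher and 3.25% lower. Of 14 ES cell markers, 1 rose, 4 fell and 9 did not pass (35.7% called). Fbxo15 fell by 0.77 and Tdgf1 by 0.35, while Tfcp2l1 rose by 0.37. The Tdgf1 call was lost when any 1 control array or overexpression replicate 2 was left out (adjusted p from 0.0511 to 0.0864), and the Tfcp2l1 call without control replicate 1 (0.0593) or 3 (0.0508). The summed linear signal of the ES markers ran from 22786 to 22896 with the Prmt6 plasmid and from 23210 to 24202 in control, and Fgf4 had the lowest mean log2 signal among them, 8.07. Of 14 fibroblast markers, 7 rose (50%), led by Col1a1 (1.34), Col1a2 (0.98) and Mmp2 (0.53), and 0 fell. Their summed signal ran from 965 to 1018 with the Prmt6 plasmid, against 650 to 688 in control. Log2 signals have no true zero, and the fibroblast marker Lum averaged 2.62. Of 7 endoderm markers, 2 rose (28.6%), Sox17 (0.58) and Gata6 (0.43). The Sox17 call ended without control replicate 1, 2 or 3 (0.0634 to 0.0869). The part of these other cell markers in the results below was not tested. In RNA from whole populations, fewer cells of a type and less RNA per cell cannot be told apart.

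With the Prmt6 plasmid, most glycolytic genes had small differences, and a few genes around the pathway moved, in both directions. Pfkfb3, the enzyme that makes an activator of phosphofructokinase, and Ndrg1, a stress- and hypoxia-induced protein, rose. Pfkl, the liver-type phosphofructokinase, Pdk1, a kinase that shuts pyruvate dehydrogenase, and Bnip3, a mitochondrial mitophagy receptor, fell. These 5 of 32 measured members were 15.6%, against 10.3% of all genes tested. The 2 rises stand beside 7.05% of all genes that rose, and the 3 falls beside 3.25% that fell. Within the lists, 2 of 19 glycolysis genes passed (10.5%, near the share of all genes) and 3 of 13 hypoxia genes (23.1%). The median change was -0.0033 in the glycolysis list and 0.083 in the hypoxia list, beside 0 over all genes. Array by array, the median deviation of the glycolysis list from the control mean was 0.033, -0.08 and 0.02 with the Prmt6 plasmid and -0.0067, -0.0067 and 0.033 in control. That of the hypoxia list was 0.10, 0.04 and 0.083 with the Prmt6 plasmid and 0.027, -0.017 and -0.013 in control. Of these lists, only the hypoxia list thus had its overexpression arrays above all control arrays, narrowly, at 0.04 against 0.027. Single genes had groups without overlap in 29.7% of all genes, and the deviation was not computed for other lists.

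**Figure D1:**
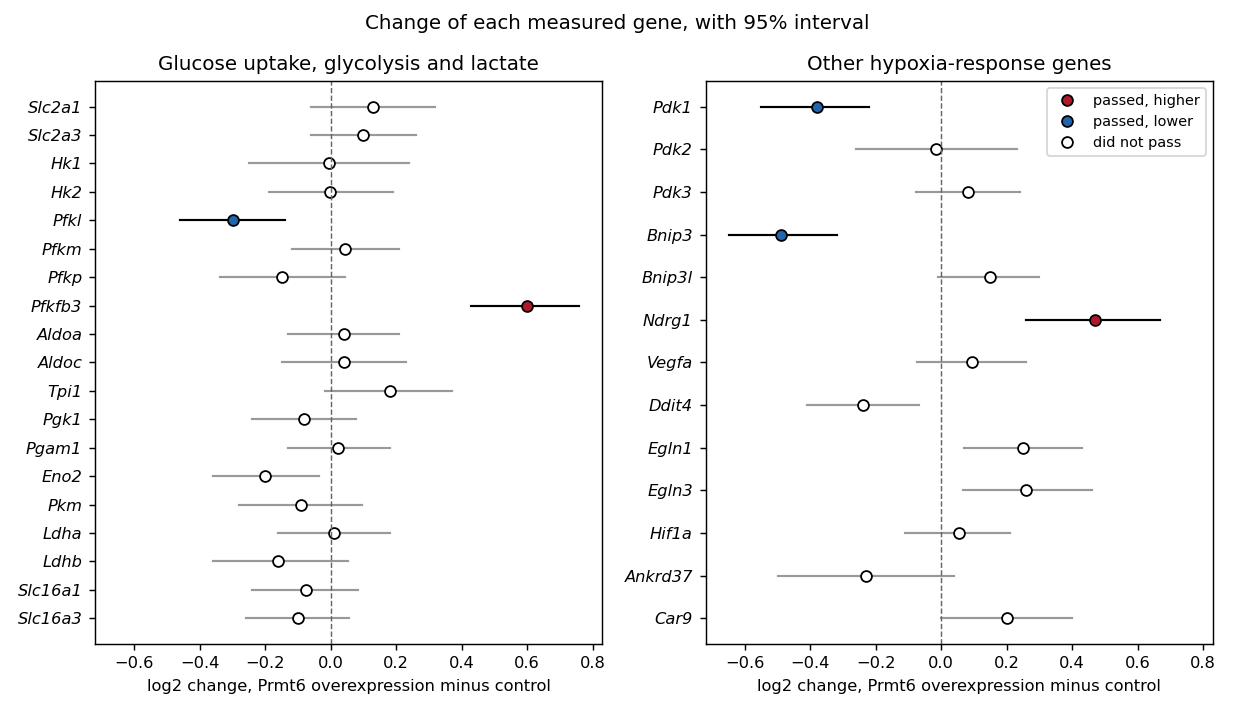
Log2 change (Prmt6 overexpression minus control, n = 3 arrays each) of the 19 measured genes of glucose uptake, glycolysis and lactate (left) and the 13 other hypoxia-response genes (right). Points are estimates and lines are 95% intervals from limma, not adjusted for the number of genes, and filled points passed the threshold. Pfkfb3 (0.60) and Ndrg1 (0.47) lie to the right, Pfkl (-0.30), Pdk1 (-0.38) and Bnip3 (-0.49) to the left, and most glycolytic enzymes lie near 0.

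Glucose enters these cells through facilitative transporters. Slc2a1, the widespread transporter GLUT1, read 12.45, 12.20 and 12.31 with the Prmt6 plasmid, against 12.16, 12.18 and 12.23 in control. Slc2a3, the high-affinity transporter GLUT3, read 12.26, 12.16 and 12.23 with the Prmt6 plasmid, against 12.07, 12.11 and 12.17 in control. In both, the arrays of the groups overlapped, and neither change passed (0.13 ± 0.083 and 0.10 ± 0.071, SE, adjusted p = 0.39 and 0.446). The upper ends of the 95% intervals, 0.32 for Slc2a1 and 0.26 for Slc2a3, correspond to rises of 1.25-fold and 1.2-fold.

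Hexokinases trap glucose in the cell by phosphorylating it. Hk2, the form that hypoxia and growth signals induce, read 10.24, 10.00 and 10.06 with the Prmt6 plasmid, against 10.07, 10.10 and 10.14 in control. Its change was -0.0033 ± 0.083, with a sign that turned when arrays were centred on their medians (0.043). Hk1, the constitutive form, was at -0.0067 ± 0.11 on its brightest probe set, which averaged 12.77. That probe set carries 1 accession, which is also listed for all 16 probe sets annotated with both Rpl17, a ribosomal protein gene, and Hk1, whose means ran from 11.18 to 12.69. The other Hk1 probe set carries RefSeq transcripts of the gene and averaged 6.89. It read 6.94, 6.98 and 7.06 with the Prmt6 plasmid, against 6.79, 6.72 and 6.84 in control. The groups did not overlap there, but the change of 0.21 ± 0.073 did not pass (adjusted p = 0.113 over 21789 probe sets). The Hk1 value therefore depends on the probe set.

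Phosphofructokinase commits the sugar to glycolysis and is built from liver, muscle and platelet subunits. Pfkl, the liver subunit, read 9.71, 9.58 and 9.63 with the Prmt6 plasmid, against 9.93, 9.91 and 9.97 in control. All overexpression arrays lay below all control arrays, and Pfkl fell by 0.30 ± 0.071 (0.814-fold, adjusted p = 0.0329). That call ended without control replicate 1 (adjusted p = 0.11), 2 (0.0924) or 3 (0.128), without overexpression replicate 2 (0.108) or 3 (0.0688), and with arrays centred on their medians (0.0702). Pfkp, the platelet subunit, was at -0.15 ± 0.084 (adjusted p = 0.335), with groups that overlapped. Pfkm, the muscle subunit, was at 0.043 ± 0.073 (0.779).

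Pfkfb3 makes the form of fructose bisphosphate that switches phosphofructokinase on, and it is a known target of HIF. It read 7.31, 7.36 and 7.42 with the Prmt6 plasmid, against 6.81, 6.69 and 6.80 in control. The groups lay well apart, and no other member changed by as much in either direction. Pfkfb3 rose 1.51-fold (0.60 ± 0.073, adjusted p = 0.00136), with a 95% interval from 1.35-fold to 1.7-fold. The call held without any 1 array (adjusted p from 0.00516 to 0.00896). Over all genes, 515 called genes rose by more.

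The steps from fructose bisphosphate to pyruvate gave small differences. The aldolases Aldoa and Aldoc, which cleave the sugar, were both at 0.04, Aldoa with 12.12, 12.04 and 12.15 with the Prmt6 plasmid and 12.01, 12.14 and 12.04 in control. Aldoc turned sign without overexpression replicate 1 and with array weights. Tpi1, which interconverts the triose phosphates, read 10.84, 10.71 and 10.89 with the Prmt6 plasmid, against 10.71, 10.68 and 10.52 in control. Its change of 0.18 ± 0.085 had the highest upper bound of the glycolysis genes that did not pass, 1.29-fold (adjusted p = 0.248). Pgk1 and Pgam1, which make ATP and shift a phosphate, were at -0.083 ± 0.07 and 0.023 ± 0.067. Each has 3 probe sets with nearly the same values, some of them identical in every array, so they cannot count as independent readings. Eno2, the neuronal enolase, read 5.02, 5.05 and 5.03 with the Prmt6 plasmid, against 5.25, 5.30 and 5.15 in control. Its groups did not overlap, yet its change of -0.20 ± 0.072 did not pass (adjusted p = 0.124). Pkm, the pyruvate kinase that makes ATP at the last step, was at -0.09 ± 0.081 (0.56) on its brightest probe set. Its second probe set was at -0.11. With RefSeq-annotated probe sets only, an alternative chosen after seeing the data, Pkm was also at -0.11. The brightest Pkm probe set thus lacked a RefSeq transcript, and neither reading passed.

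Lactate dehydrogenase turns pyruvate into lactate, and monocarboxylate transporters move lactate across the membrane. Ldha, the subunit that favours lactate formation and a classic HIF target, read 11.60, 11.48 and 11.63 with the Prmt6 plasmid, against 11.52, 11.62 and 11.54 in control. The groups interleaved, and the change was 0.01 ± 0.075 with a 95% interval from -0.16 to 0.18. Its sign was negative under quantile normalization (-0.054). Ldhb, the other main subunit, read 9.12, 9.12 and 8.85 with the Prmt6 plasmid, against 9.20, 9.14 and 9.22 in control. Its change was -0.16 ± 0.091 (adjusted p = 0.344), while its second probe set was at 0.04, so that its probe sets disagreed in sign. Slc16a1, the widespread transporter MCT1, was at -0.077 ± 0.069. Slc16a3, the lactate exporter MCT4 that hypoxia induces, read 9.11, 9.05 and 9.07 with the Prmt6 plasmid, against 9.14, 9.25 and 9.15 in control. Its arrays did not overlap, but the change of -0.10 ± 0.07 did not pass (0.423). Over the 17 glycolysis genes that did not pass, changes ran from -0.20 to 0.18, and the unadjusted 95% intervals reached at most 1.29-fold in either direction. This range takes Hk1 from its brightest probe set, and the other Hk1 probe set, at 0.21, lies outside it.

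**Figure D2:**
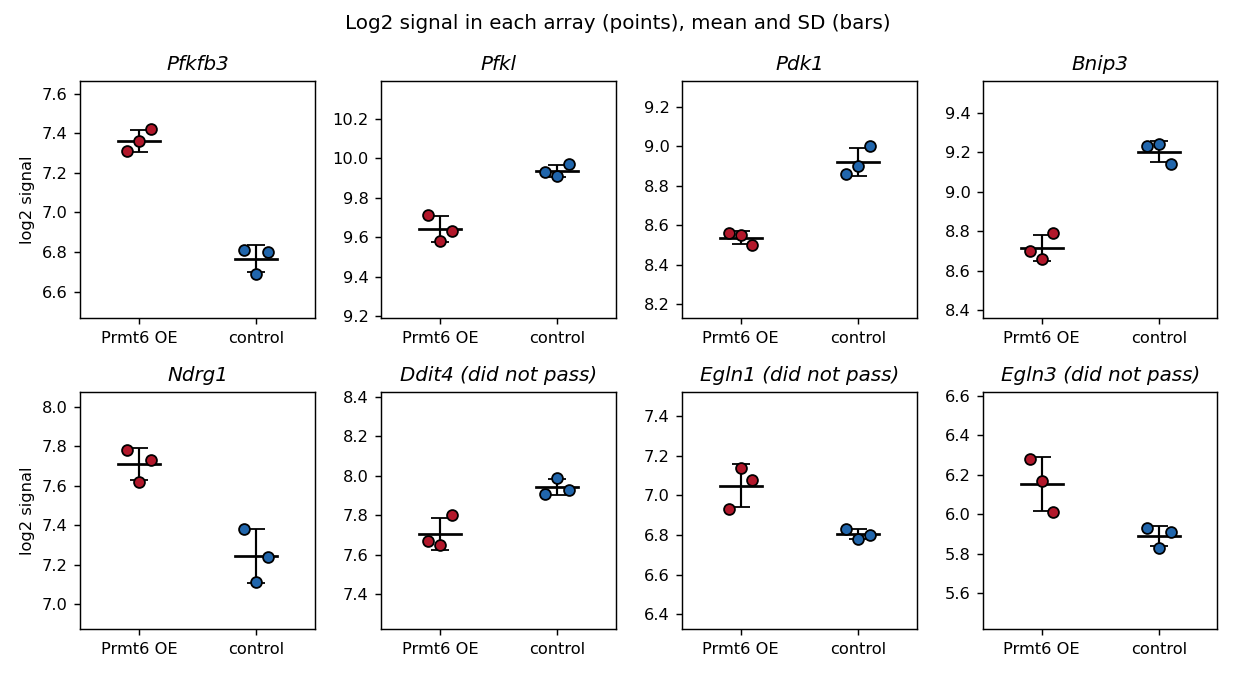
Log2 signal of 8 genes in each array, with the 3 Prmt6 overexpression arrays (Prmt6 OE, red) left of the 3 control arrays (blue) and the mean and SD as bars; every panel spans the same range of 1.2 log2 units. The 8 genes are the members that passed and those nearest the threshold among the rest, Ddit4, Egln1 and Egln3, which did not pass. In all 8 the groups do not overlap, which follows in part from this choice. Groups did not overlap in 13 of the 32 measured members (40.6%), beside 29.7% of all genes.

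Pyruvate dehydrogenase kinases inhibit pyruvate dehydrogenase. Pdk1, a family member that HIF induces, read 8.56, 8.55 and 8.50 with the Prmt6 plasmid, against 8.86, 8.90 and 9.0 in control. Every overexpression array lay below every control array, and Pdk1 fell by 0.38 ± 0.072 (0.767-fold, adjusted p = 0.0113). The call ended without control replicate 3 (0.0575). Pdk2 and Pdk3, kinases of the same family, were at -0.017 ± 0.11 and 0.083 ± 0.07 and did not pass, and Pdk2 turned positive with centred arrays (0.03) and quantile normalization (0.033).

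Bnip3 and Bnip3l sit on the outer mitochondrial membrane and mark mitochondria for removal. Bnip3 read 8.70, 8.66 and 8.79 with the Prmt6 plasmid, against 9.23, 9.24 and 9.14 in control. It fell by 0.49 ± 0.073 (0.714-fold, adjusted p = 0.00393), and the call held without any 1 array (0.00653 to 0.0244). Its second probe set read 7.72, 7.82 and 7.61 with the Prmt6 plasmid, against 8.17, 8.22 and 8.27 in control, a fall of 0.50 ± 0.079 (adjusted p = 0.00514 over all probe sets). Both probe sets thus gave a fall of the same size. Bnip3l, the related receptor also called Nix, read 10.13, 10.16 and 10.12 with the Prmt6 plasmid, against 10.04, 9.99 and 9.94 in control. Its overexpression arrays lay above its control arrays, and the change of 0.15 ± 0.068 did not pass (0.232), with the same size on its second probe set.

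Ndrg1, which is strongly induced by hypoxia and by other stresses, read 7.78, 7.62 and 7.73 with the Prmt6 plasmid, against 7.38, 7.11 and 7.24 in control. The groups did not overlap, and Ndrg1 rose 1.38-fold (0.47 ± 0.09, adjusted p = 0.0131). The call ended without control replicate 2 (0.0523) or 3 (0.0507). Ddit4, an inhibitor of mTOR signalling under stress, read 7.67, 7.65 and 7.80 with the Prmt6 plasmid, against 7.91, 7.99 and 7.93 in control. Its change of -0.24 ± 0.074 did not pass (0.0857). Vegfa, the vessel growth factor, read 6.70, 6.61 and 6.76 with the Prmt6 plasmid, against 6.57, 6.65 and 6.57 in control, and its change of 0.093 ± 0.074 did not pass (0.497). Ankrd37, an ankyrin repeat protein that HIF induces, was at -0.23 ± 0.12 (0.279) with overlapping groups. Car9, a membrane carbonic anhydrase used as a hypoxia marker, read 4.28, 4.0 and 4.11 with the Prmt6 plasmid, against 3.91, 3.98 and 3.90 in control. Its change of 0.20 ± 0.087 did not pass (0.203), and no detection call was used here to separate its signal from background.

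The oxygen sensors and their substrate had modest differences. Hif1a, the oxygen-labile HIF subunit, read 8.91, 8.87 and 8.87 with the Prmt6 plasmid, against 8.79, 8.80 and 8.90 in control. The groups overlapped and the change was 0.053 ± 0.07 (adjusted p = 0.706), which concerns its transcript and not the protein that oxygen controls. Egln1, the main prolyl hydroxylase, read 6.93, 7.14 and 7.08 with the Prmt6 plasmid, against 6.83, 6.78 and 6.80 in control. Egln3, a hydroxylase that HIF itself induces, read 6.28, 6.17 and 6.01 with the Prmt6 plasmid, against 5.93, 5.83 and 5.91 in control. In both, all overexpression arrays lay above all control arrays, and neither change passed (0.25 ± 0.078 and 0.26 ± 0.087, adjusted p = 0.0888 and 0.0993). Egln1 passed without overexpression replicate 1 (0.0358) and with centred arrays (0.0464), and Egln3 passed without overexpression replicate 3 (0.0457). With genes under the 30th percentile of mean signal left out, Egln1, Egln3 and Ddit4 passed (0.042, 0.0486 and 0.0402). Among all 32 measured members, 13 had groups that did not overlap (40.6%), 6 higher and 7 lower with the Prmt6 plasmid, beside 29.7% of all genes.

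Related members that share a function were set against each other within each array. The difference between 2 probe sets within an array was compared between the groups for 13 pairs of related members, with a two-sided exact permutation test over the 3 and 3 arrays, whose smallest possible p is 0.1. In 6 pairs the groups did not overlap, with an exact permutation p = 0.1 each (0.217 adjusted over the 13 pairs), so no pair could pass 0.05. Bnip3 minus Bnip3l averaged -1.42 ± 0.085 with the Prmt6 plasmid and -0.79 ± 0.032 in control (SD, n = 3 each, exact test p = 0.1), a shift of -0.63. Pdk1 minus Pdk3 averaged 0.93 ± 0.055 with the Prmt6 plasmid and 1.39 ± 0.042 in control, a shift of -0.47. Pfkl minus Pfkm averaged 1.93 ± 0.045 with the Prmt6 plasmid and 2.27 ± 0.061 in control, a shift of -0.34. The other pairs without overlap were Pdk1 and Pdk2 (-0.37), Pfkl and Pfkp (-0.15) and Pfkm and Pfkp (0.19). The pairs Slc2a1 and Slc2a3, Hk1 and Hk2, Aldoa and Aldoc, Ldha and Ldhb, Slc16a1 and Slc16a3, Pdk2 and Pdk3, and Egln1 and Egln3 overlapped. Hk1 was read there by its brightest probe set, whose accession is shared as given above. Apart from Pfkm and Pfkp, each pair without overlap holds Bnip3, Pdk1 or Pfkl, whose falls were called above. The shifts of those pairs restate these falls in part and are not further evidence. Several pairs share Pfkl, Pfkm, Pfkp or Pdk1, so the pairs are not independent, and the shifts are given as a description. Single genes already had groups without overlap in 29.7% of all genes tested, and no such share was computed over all gene pairs.

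**Figure D3:**
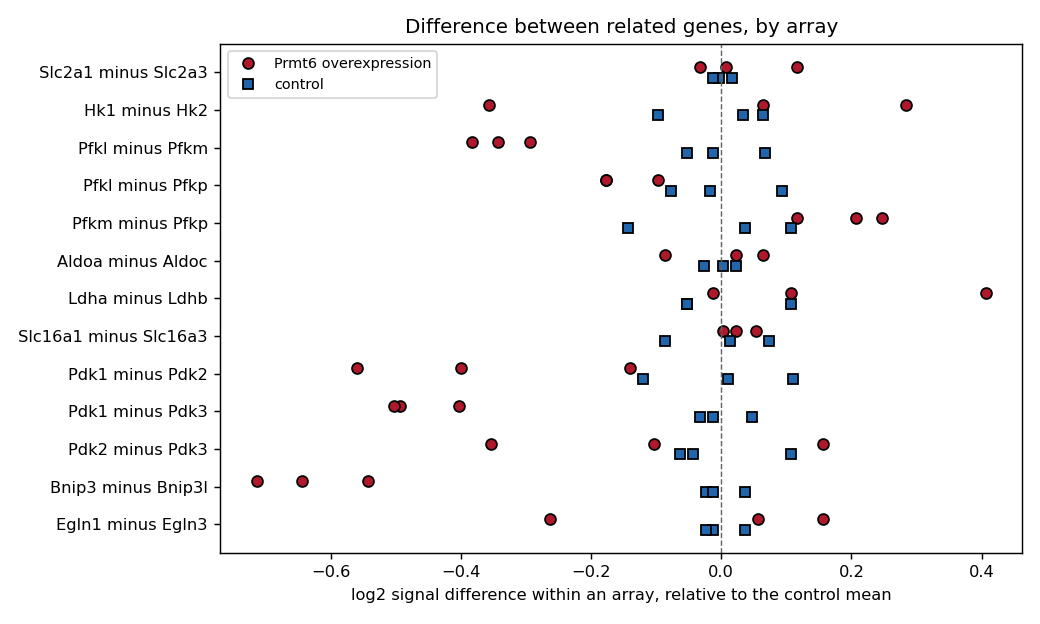
Difference in log2 signal between related genes within each array, relative to the control mean of that pair (x axis, log2 units), for 13 pairs; red circles are the 3 Prmt6 overexpression arrays and blue squares the 3 control arrays. The overexpression arrays of Bnip3 minus Bnip3l, Pdk1 minus Pdk3 and Pfkl minus Pfkm stand left of all control arrays, by 0.63, 0.47 and 0.34 on average. Bnip3, Pdk1 and Pfkl were each called lower as single genes, so these shifts restate those falls in part.

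Other genes of the same pathways were read from lists of known function, which were chosen with earlier results of these data known. Of 26 other glycolysis and lactate genes, 2 rose, 1 fell and 23 did not pass (11.5% called, beside 10.3% of all genes, and median 0.01, beside 0). Eno3, the muscle enolase, read 6.85, 6.74 and 6.91 with the Prmt6 plasmid, against 6.53, 6.48 and 6.29 in control (0.40 ± 0.089, adjusted p = 0.0247). Bsg, the chaperone that brings monocarboxylate transporters to the membrane, rose by 0.32 ± 0.072 (0.0281). Adpgk, a glucokinase that uses ADP, fell by 0.36 ± 0.068 (0.0114). The Eno3 call was lost when control replicate 2 or 3, or overexpression replicate 1 or 3, was left out (0.0611 to 0.0917). The Bsg call was lost on leaving out any array other than overexpression replicate 1 (0.0674 to 0.115) and under quantile normalization (0.0659), and the Adpgk call ended without control replicate 1 (0.0607) or 2 (0.0544). Of 12 genes of pyruvate dehydrogenase and pyruvate import, 1 fell and 11 did not pass (8.33% called, below the 10.3% of all genes, median -0.0067). The fall was that of Pcx, pyruvate carboxylase, which feeds pyruvate into the tricarboxylic acid cycle as oxaloacetate (-0.35 ± 0.076, adjusted p = 0.0232). Its call was lost on leaving out any control array or overexpression replicate 2 (0.0571 to 0.0926). Of 10 pentose phosphate genes, Prps1, which makes the ribose donor for nucleotides, fell (-0.34 ± 0.079, 0.0292) and 9 did not pass (median 0.062). The share called, 10%, was near the 10.3% of all genes. The Prps1 call was lost on leaving out any array other than overexpression replicate 1 (0.0602 to 0.118) and with centred arrays (0.0518).

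The tricarboxylic acid cycle oxidizes what pyruvate dehydrogenase delivers. The list has 19 measured genes, of which 3 rose, 0 fell and 16 missed the threshold (15.8% called, beside 10.3% of all genes, and 7.05% of all genes rose). Its median change of 0.16 was the highest of the metabolic lists. Idh2, the mitochondrial isocitrate dehydrogenase, read 8.49, 8.43 and 8.48 with the Prmt6 plasmid, against 8.01, 8.10 and 8.09 in control. The groups did not overlap, and Idh2 rose by 0.40 ± 0.069 (adjusted p = 0.00759). Sdhd, a membrane anchor of succinate dehydrogenase, rose by 0.40 ± 0.095 (0.0313), and Dlst, a subunit of the oxoglutarate dehydrogenase complex, by 0.26 ± 0.067 (0.0446). The Sdhd call was lost on leaving out any array other than overexpression replicate 2 (0.0683 to 0.101) and under quantile normalization (0.0542). The Dlst call ended without any 1 array (0.0675 to 0.169) and under quantile normalization (0.0706). In 11 of the 19 genes all overexpression arrays lay above all control arrays, and in 1 they lay below, beside 29.7% of all genes without overlap in either direction.

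Of 17 genes of the HIF complex and its degradation machinery, 3 rose, 0 fell and 14 did not pass (17.6% called, beside 10.3% of all genes, median -0.0067). Cited2, a HIF-induced protein that competes with HIF for its coactivators, read 10.14, 9.93 and 9.89 with the Prmt6 plasmid, against 8.90, 9.06 and 9.02 in control. It rose 1.99-fold (0.99 ± 0.09, adjusted p = 0.00024), and its call held under every alternative run. Elob and Rbx1, parts of the ubiquitin ligase that removes hydroxylated HIF, rose by 0.38 ± 0.086 and 0.31 ± 0.068 (0.0262 and 0.0228). The Elob call was lost on leaving out any array other than overexpression replicate 2 (0.0548 to 0.102) and under quantile normalization (0.0546), and the Rbx1 call without any control array or overexpression replicate 2 (0.079 to 0.0939). Among 13 transcription factors of glycolytic genes, Myc rose, Mycn fell and 11 did not pass (15.4% called, beside 10.3% of all genes, median 0.023). Myc, which activates many glycolytic genes, read 8.81, 8.89 and 8.94 with the Prmt6 plasmid, against 8.36, 8.51 and 8.48 in control (0.43 ± 0.077, adjusted p = 0.00898). Mycn, its relative in early embryos, read 10.08, 10.10 and 10.05 with the Prmt6 plasmid, against 10.51, 10.54 and 10.47 in control (-0.43 ± 0.067, 0.00463). Both genes thus differed from control by equal amounts, in opposite directions.

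Of 42 other hypoxia-response genes, 7 rose, 3 fell and 32 did not pass (23.8% called, beside 10.3% of all genes, median 0.043). Over all genes 7.05% rose and 3.25% fell. In 21 of the 42 genes the groups did not overlap, 13 higher and 8 lower with the Prmt6 plasmid, beside 29.7% of all genes without overlap. Bhlhe40, a transcriptional repressor of the clock and stress response, read 7.24, 7.20 and 6.87 with the Prmt6 plasmid, against 5.48, 5.53 and 5.42 in control. It rose 3.09-fold (1.63 ± 0.11, adjusted p = 3.67e-05). Edn1, the vasoconstrictor endothelin, read 7.20, 7.08 and 6.92 with the Prmt6 plasmid, against 5.62, 5.48 and 5.57 in control, and rose 2.85-fold (2.15e-05). Lox, which crosslinks collagen, also rose 2.85-fold (8.76e-06), at 5.79, 5.64 and 5.68 with the Prmt6 plasmid, against 4.19, 4.27 and 4.12 in control. These genes moved by more than any of the 32 members. Slc6a6, the taurine transporter, rose by 0.63 ± 0.093 (0.00362), and Igfbp3, which binds insulin-like growth factors, by 0.62 ± 0.08 (0.00179). Ak4, a mitochondrial adenylate kinase, read 8.01, 8.06 and 8.06 with the Prmt6 plasmid, against 8.73, 8.80 and 8.82 in control, and fell by 0.74 ± 0.068 (adjusted p = 0.000262). The 4 further calls, named after their values were seen, were rises of the placental growth factor Pgf (0.57) and the collagen lysyl hydroxylase Plod2 (0.45) and falls of the mitochondrial protein gene Fam162a (-0.37) and the secreted glycoprotein gene Stc2 (-0.34). Of these 10 calls, that of Stc2 ended without any 1 array (0.0502 to 0.109) and with centred arrays (0.0529). Lox and Plod2 act on collagen, and in the same arrays 7 of 14 fibroblast markers rose, among them the collagen genes Col1a1 (1.34) and Col1a2 (0.98). The summed fibroblast signal is given above. Their part in the rises of this list was not tested.

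**Figure D4:**
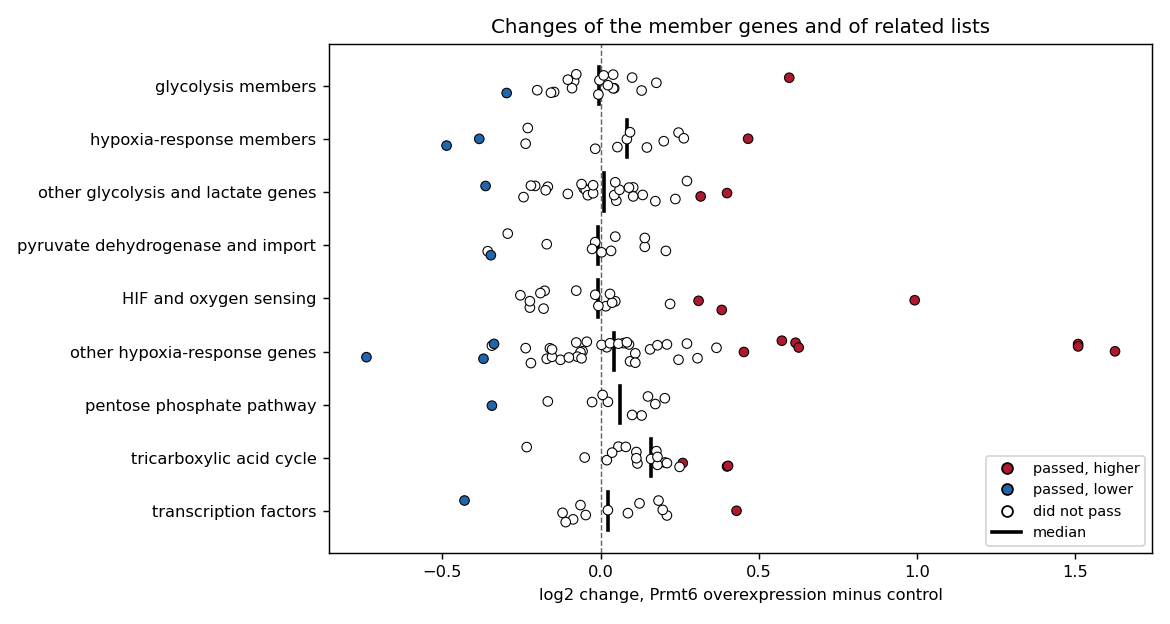
Log2 change (Prmt6 overexpression minus control) of every measured gene of the member lists and of 7 related lists, 1 point per gene with vertical jitter, filled where the change passed, and a bar at the median of each list. The other hypoxia-response genes spread from -0.74 (Ak4) to 1.63 (Bhlhe40), and the tricarboxylic acid cycle list has its median at 0.16.

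The promoters of the called members are shown because HIF binds near the start of many of these genes and the members moved in both directions. The sequences are the 250 bases before the transcription start in RefSeq (GRCm38.p6), 5' to 3' on the strand of the gene. Capitals mark the HIF core motif as ACGTG or GCGTG, read on both strands, so that CACGTG holds ACGTG on each strand with the matches overlapping. Both starts of Pfkfb3 in the table and the upstream start of Pdk1 are given.
Pfkfb3, upstream start, chr2:11553930-11554179, minus strand: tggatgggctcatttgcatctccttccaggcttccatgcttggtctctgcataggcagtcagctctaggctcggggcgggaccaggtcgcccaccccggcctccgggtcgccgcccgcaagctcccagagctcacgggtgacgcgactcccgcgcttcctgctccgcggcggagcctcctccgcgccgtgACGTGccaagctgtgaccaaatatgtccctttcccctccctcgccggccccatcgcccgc
Pfkfb3, downstream start, chr2:11502091-11502340, minus strand: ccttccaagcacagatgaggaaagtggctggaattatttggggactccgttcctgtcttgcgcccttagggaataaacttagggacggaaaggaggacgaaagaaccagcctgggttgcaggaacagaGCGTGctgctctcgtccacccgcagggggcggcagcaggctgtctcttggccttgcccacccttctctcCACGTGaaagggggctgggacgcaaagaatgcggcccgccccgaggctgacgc
Pfkl, chr10:78009808-78010057, minus strand: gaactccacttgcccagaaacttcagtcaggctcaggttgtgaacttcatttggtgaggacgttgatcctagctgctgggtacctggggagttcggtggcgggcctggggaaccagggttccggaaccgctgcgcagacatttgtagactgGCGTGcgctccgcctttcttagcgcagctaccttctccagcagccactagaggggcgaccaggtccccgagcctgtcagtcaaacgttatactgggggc
Pdk1, chr2:71872974-71873223, plus strand: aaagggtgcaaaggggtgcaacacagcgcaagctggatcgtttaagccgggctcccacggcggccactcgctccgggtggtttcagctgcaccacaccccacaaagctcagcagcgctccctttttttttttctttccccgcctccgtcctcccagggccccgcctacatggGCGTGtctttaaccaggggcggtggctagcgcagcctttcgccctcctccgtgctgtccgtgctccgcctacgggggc
Bnip3, chr7:138909507-138909756, minus strand: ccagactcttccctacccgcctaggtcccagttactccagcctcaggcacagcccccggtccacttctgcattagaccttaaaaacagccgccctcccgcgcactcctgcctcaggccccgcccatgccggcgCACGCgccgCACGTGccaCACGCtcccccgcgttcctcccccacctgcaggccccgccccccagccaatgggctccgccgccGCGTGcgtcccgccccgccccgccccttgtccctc
Pfkfb3, which rose, had ACGTG with its first base 60 bases before its upstream start, and at its downstream start CACGTG 53 bases before it and GCGTG 122 bases before it. Bnip3, which fell, had CACGTG 108 bases before its start and GCGTG or its reverse complement at 117, 99 and 35 bases. Pfkl and Pdk1, which fell, each had GCGTG once, 99 and 78 bases before the start. The downstream start of Pdk1 held neither motif.

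Promoters of 29 of the 32 measured members were in the table, and Slc2a3, Bnip3l and Ndrg1 were not matched. Over the 42 promoters of these genes, 57.1% held ACGTG, 47.6% GCGTG and 78.6% either, beside 16.6%, 28.2% and 38.6% of the 32851 promoters of the whole table. The median GC content was 62.0% in the member promoters and 52.4% in all promoters. At least 1 promoter with either motif was found in 4 of 4 called members and in 23 of 25 members that did not pass. Of the members that rose, Pfkfb3 alone has a promoter in the table, so the motif cannot be compared between members that rose and fell. A match is a description of letters, not of binding.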

How the data were processed

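Biotin-labelled cRNA from total RNA of 6 HM1 samples was read on 1 Affymetrix array each. The deposited values are log2 signals made with RMA, per the submitters' processing notes. The RMA version is not given. RMA brings arrays to a common distribution, which takes out much of any shift that most genes share. Values of the 35556 probe sets ran from 0.84 to 14.38. Probe sets were named from the platform annotation given with the series, which is old, 21789 with 1 symbol, 1621 with several and 12146 with none. Matching by gene ID to GRCm38.p6 succeeded for 21698 of the single-symbol probe sets. Each of 19938 genes was read by 1 single-symbol probe set, the one of highest mean, and several-symbol and unnamed probe sets were left out.

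Groups were compared with limma 3.58.1 in R 4.3.3 (lmFit, eBayes, two-sided, no covariates, no filter), with Benjamini-Hochberg adjustment over all genes. Intervals are 95% and not adjusted. The number of arrays limits the precision. The same comparison was tested on simulated data (19938 genes, 5 runs). Log2 changes of 0.3 were called in 3.6% of the altered genes, changes of 0.5 in 44.4%, of 1 in 85.2% and of 2 in 99.2%. The simulation altered a far smaller share of genes than the 10.3% called in the real data. The adjusted threshold was thus stricter there, and these shares cannot be carried over to the real comparison. Exact permutation tests used scipy 1.17.1 and figures matplotlib 3.10.9 in Python 3.11.15.

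The member genes, the related lists and the alternatives were chosen with earlier results of these data known. All measured members are named, with Prmt6 and up to 6 called genes of each related list (3 of each marker list) by size of change, and the 4 remaining calls among the other hypoxia-response genes were added after their values were seen. Alternatives tried were leaving out each array, a replicate block, dim-gene filters, other scalings, other probe-set choices, other variance priors, array weights and a stricter threshold. The values showed no pairing by the replicate numbers in the titles, as deviations of same-numbered arrays correlated at -0.019, -0.016 and -0.117. Whether samples of the same number were handled together cannot be told from these correlations.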

Additional observations from a re-analysis of the deposited data

How the results depend on the processing

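The directions of the 5 called members and the calls of Pfkfb3 and Bnip3 held under all 15 alternative fits, with adjusted p from 3.86e-05 to 0.00896 and from 4.05e-05 to 0.0244. At a threshold of 0.01 glycolysis calls numbered 1 higher and 0 lower, hypoxia calls 0 and 1, and all genes 765 and 219. Calls that ended for Pfkl, Pdk1 and Ndrg1 without single arrays are given above, and the cause was not tested. The count of lower glycolysis genes was 0 with centred arrays. Higher hypoxia genes numbered 2 with centred arrays or the trended and robust prior and 3 with either filter on dim genes or array weights, with Egln1 passing in all of these and Egln3 in those with 3. Without single arrays, glycolysis calls ran from 1 to 1 higher and from 0 to 1 lower, hypoxia calls from 0 to 2 higher and from 1 to 2 lower, and all genes from 862 to 1232 higher and from 280 to 763 lower. Lower calls over all genes were 990 and 1079 with genes under the 30th percentile and under the median left out, 1115 with the trended prior and 1098 with array weights.

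The replicate block takes samples of the same number as pairs, which the labels do not state. With it, calls over all genes were 1018 higher and 383 lower. Those of the members were 1 higher and 0 lower (glycolysis, Pfkl adjusted p = 0.0922) and 1 higher and 2 lower (hypoxia). Centring the arrays shifts every gene by the same amount and put the median over all genes at 0.0467. The glycolysis median was then 0.043 and the hypoxia median 0.13. Under quantile normalization the glycolysis median was -0.054, beside 0.0239 over all genes. Without single arrays it ran from -0.02 to 0.033, so its sign is not settled. Signs turned in 24 of 509 member values, all of genes that did not pass. Hk1 was at 0.04 with centred arrays, 0.10 with the mean of its probe sets, 0.081 with array weights, 0.21 with RefSeq-annotated probe sets only (chosen after seeing the data) and -0.10 to 0.10 without single arrays. Hk2 was at 0.043 with centred arrays and -0.073 to 0.047 without single arrays, Aldoc at -0.017 with array weights and -0.012 to 0.10, and Pgam1 at -0.027 under quantile normalization and -0.0017 to 0.038. Ldha was at -0.054 under quantile normalization, -0.03 with array weights and -0.02 to 0.055, and Pdk2 at 0.03 with centred arrays, 0.033 under quantile normalization, 0.079 with array weights and -0.12 to 0.085.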
